A study of Mus musculus with 12 samples.

Results

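The genes described here encode 3 families of phase II conjugation enzymes, the glutathione S-transferases (Gst), the UDP-glucuronosyltransferases (Ugt) and the sulfotransferases (Sult). They were taken by gene symbol alone (Gst classes alpha, kappa, mu, omega, pi, theta and zeta, Ugt families 1 to 3 and Sult families 1 to 5). The rule itself used no measured values, but it was set with earlier results of these data known. Of 17097 genes measured, 39 met this rule: 16 Gst, 11 Ugt and 12 Sult genes, read by 51 probe sets. No gene of the zeta class was found. Where a gene had several probe sets, the one with the highest mean over all arrays stood for it, and 10 genes had more than 1.

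The mice were male BALB/c, aged 10 weeks, and their brain and liver were measured on 12 microarrays, 1 for each tissue, preservation and time after death. Tissue was taken just after death (0 h), after 3 h in a body left at room temperature or after 18 h in one held at 4 °C, and was either put in RNAlater and frozen (FF) or fixed in formalin and embedded in paraffin (FFPE). FF RNA was labelled by 3' in vitro transcription and FFPE RNA by whole-transcript amplification, so preservation and labelling kit changed together, and so did time and storage temperature. Neither the number of animals nor whether arrays share one is stated in the labels, so p-values measure only the spread between these arrays, which may be technical.

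Phase II enzymes attach a polar group to drugs, hormones and reactive metabolites, which makes them easier to excrete. Gst enzymes join glutathione to electrophiles, Ugt enzymes of the endoplasmic reticulum membrane mainly transfer glucuronic acid from UDP-glucuronic acid, and Sult enzymes of the cytosol transfer sulfate from the donor PAPS. The liver is the main site of all 3 reactions, and hepatocytes carry most of the enzymes. In brain, Gst enzymes are found in glia and at the barriers, and Sult4a1 is a neuronal protein with no well-established substrate.

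Values are deposited log2 intensities, and a difference of 1 on this scale is 2-fold. Array medians lay between 4.65 and 4.68 in FF and between 4.80 and 4.89 in FFPE. Hepatocyte markers such as Alb were higher in liver than in brain for 9 of 9 genes in both preservations, and 5 of 5 neuron and 5 of 5 oligodendrocyte markers were lower. For Gapdh the 3' control probe set exceeded the 5' one by a log2 gap that widened with time in both kinds of liver, in FF from 0.03 to 0.82 and 1.14 (0, 3 and 18 h) and in FFPE from 1.04 to 1.63 and 1.77. For Actb it was 1.09, 2.00 and 1.90 in FF liver but -0.12, -0.01 and -0.18 in FFPE liver. In brain the Gapdh gap stayed between -0.02 and 0.05 in FF and between 1.22 and 1.25 in FFPE. The FF brain array at 0 h stood apart from the later FF brain arrays in liver transcripts: the mean level of the 9 hepatocyte markers ran 7.82, 5.14 and 4.92 over the 3 times. Without that array the FF tissue counts given next stayed at 30 higher and 3 lower, and other values that move without it are given beside the result.

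**Figure D1:**
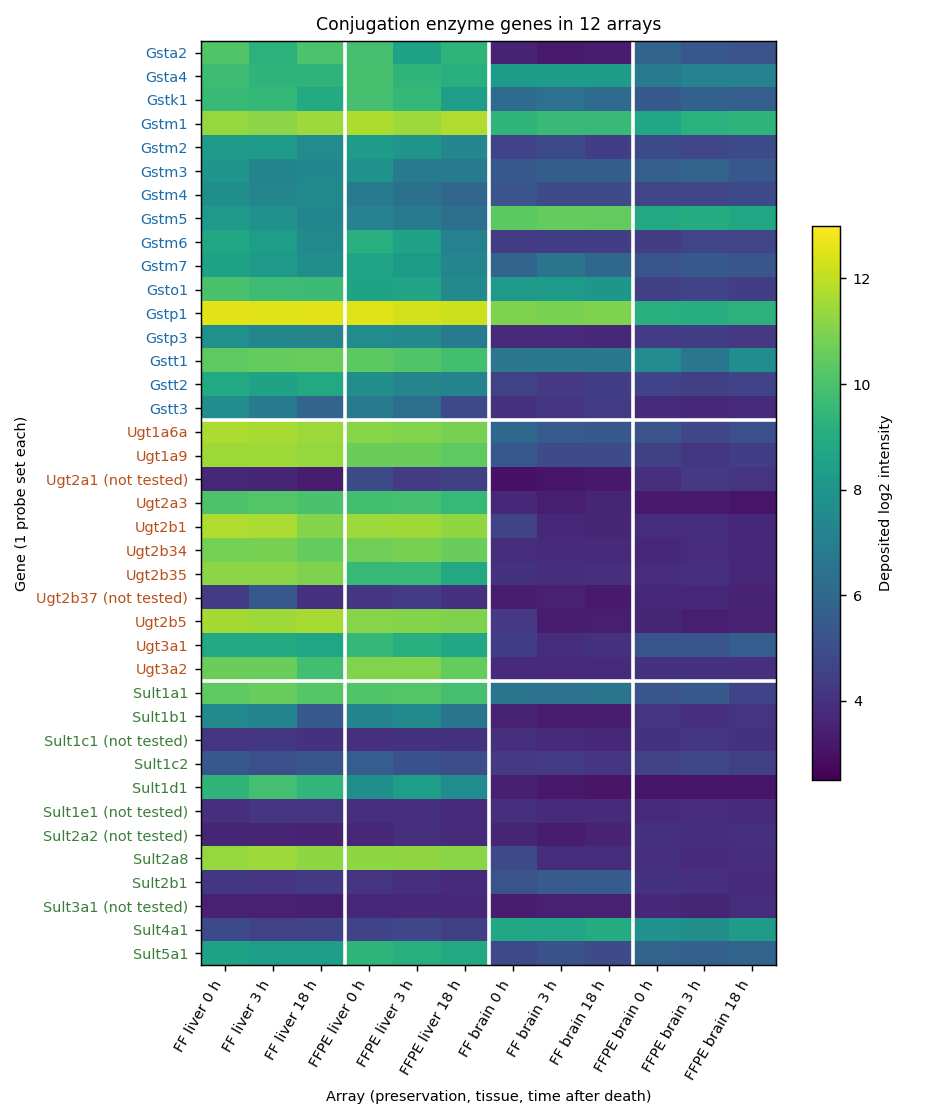
Deposited log2 intensity (colour) of the 39 genes (rows; Gst names in blue, Ugt in brown, Sult in green) in each of the 12 arrays (columns). Levels can be read along a row but not between rows, because probe sets differ in brightness. The 9 tested Ugt rows switch from high in the 6 liver arrays to low in the 6 brain arrays, Gstm5 and Sult4a1 run the other way, and the 6 genes marked as not tested lay between 3.01 and 5.38 in every array.

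Most of these genes were far higher in liver than in brain. A gene was tested if it reached the median of an array in at least 3 arrays, and 33 members did: 16 Gst, 9 Ugt and 8 Sult genes. This filter also keeps genes through the tissue where they are high, so the tissue counts describe the genes that passed it. In FF tissue 30 of the 33 tested members were higher in liver and 3 were lower (limma, Benjamini-Hochberg adjusted p under 0.05, mean of 3 arrays against 3), where 74.1% of all 13073 genes tested differed and 36.5% were higher in liver. In FFPE tissue 30 were higher and 2 lower, against 63.5% of all genes differing. The median difference between liver and brain over the tested members was 3.67 in FF and 3.32 in FFPE, and 0.04 over all genes in both.

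The Ugt family showed the widest gap between the tissues. All 9 tested Ugt genes were higher in liver, by 4.69 to 7.93 in FF and by 3.77 to 7.60 in FFPE, with a median of 6.58 and 6.55. Ugt2b5, one of a row of Ugt2b genes on chromosome 5, stood at 11.60, 11.52 and 11.63 in FF liver at 0, 3 and 18 h and at 11.09, 11.05 and 10.97 in FFPE liver. The same probe set read 4.26, 3.33 and 3.38 in FF brain and 3.61, 3.39 and 3.47 in FFPE brain. No brain array came near a liver array, and liver exceeded brain by 7.93 ± 0.15 in FF (log2 difference ± SE), or by 8.17 without the FF brain array at 0 h. Its brain values all lay below the array medians and the files give no background level, so this difference, like that of other members this low in brain, is best read as a lower bound.

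Ugt2b1 gave 11.75, 11.67 and 11.05 in FF liver and 11.48, 11.51 and 11.25 in FFPE liver, against 4.65, 3.71 and 3.64 in FF brain and 3.88, 3.87 and 3.70 in FFPE brain. Ugt1a6a, whose enzyme conjugates small phenols, gave 11.71, 11.61 and 11.43 in FF liver and 11.15, 11.02 and 10.85 in FFPE liver. In brain it read 6.04, 5.53 and 5.39 in FF and 5.17, 4.73 and 5.06 in FFPE. Mouse Ugt1a genes differ in their first exon and share the exons after it, so a 3' probe set of Ugt1a6a or Ugt1a9 may read the whole locus, and the 2 genes are uncertain as single genes. The same holds for closely related Ugt2b copies.

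Gst genes were spread more evenly over the tissues. Of the 16, 15 were higher in liver in each preservation, with a median difference of 2.55 in FF and 2.84 in FFPE. Gstp1, the pi-class enzyme, read 12.58, 12.49 and 12.54 in FF liver and 12.48, 12.29 and 12.21 in FFPE liver. Its level was 10.95, 10.90 and 10.98 in FF brain and 9.14, 9.06 and 9.24 in FFPE brain, so liver exceeded brain by 1.59 ± 0.11 in FF and by 3.18 ± 0.11 in FFPE. In both preservations all liver values lay above all brain values, as in 37.1% of all genes tested in FF and 34.9% in FFPE.

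Gstm1, a mu-class enzyme, gave 11.32, 11.19 and 11.47 in FF liver, 11.72, 11.45 and 11.74 in FFPE liver, 9.35, 9.61 and 9.58 in FF brain and 8.74, 9.21 and 9.32 in FFPE brain. Gstt1, a theta-class enzyme that acts on small halogenated compounds, gave 10.41, 10.51 and 10.58 in FF liver and 10.37, 10.13 and 9.84 in FFPE liver. In brain Gstt1 stood at 6.67, 6.72 and 6.76 in FF and at 7.56, 6.61 and 7.63 in FFPE. In both genes all liver values lay above all brain values of the same preservation (37.1% of all genes tested in FF, 34.9% in FFPE). The Gstm1 and Gsto1 probe sets are of a type that can read related transcripts, as are those of Gstm3, Ugt2b34 and Ugt3a1.

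Gstm5 was the only Gst gene higher in brain, in FF and in FFPE alike. It is a mu-class gene known for its expression in brain and testis. Its level was 10.34, 10.51 and 10.46 in FF brain and 8.85, 9.01 and 8.81 in FFPE brain, against 8.15, 7.80 and 7.31 in FF liver and 7.16, 6.87 and 6.38 in FFPE liver. Liver was lower by 2.68 ± 0.11 in FF, as a difference of -2.68, and by 2.09 ± 0.11 in FFPE, as a difference of -2.09. Its neighbours on chromosome 3 went the other way: the 6 other mu-class genes were all higher in liver, Gstm6 by 3.85 ± 0.14 in FF and 3.67 ± 0.14 in FFPE.

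Sult genes split into a liver group and a brain group. Sult2a8, whose enzyme sulfates bile acids in mouse liver, gave 11.34, 11.47 and 11.21 in FF liver and 11.20, 11.25 and 11.13 in FFPE liver, against 4.82, 3.87 and 3.87 in FF brain and 3.93, 3.76 and 3.88 in FFPE brain. Sult1a1, a phenol sulfotransferase, gave 10.39, 10.55 and 10.25 in FF liver, 10.13, 10.19 and 9.92 in FFPE liver, 6.53, 6.41 and 6.52 in FF brain and 5.28, 5.44 and 4.61 in FFPE brain. Sult1d1, which acts on catecholamines, was at 3.41, 3.23 and 3.05 in FF brain and at 3.10, 3.11 and 3.11 in FFPE brain. Its liver values are given with the time course. All 3 were higher in liver without overlap, as were 37.1% of all genes tested in FF and 34.9% in FFPE.

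Sult4a1 was the brain counterpart in this family. It read 8.77, 8.73 and 8.96 in FF brain and 7.83, 7.70 and 8.29 in FFPE brain, against 4.85, 4.52 and 4.61 in FF liver and 4.60, 4.73 and 4.48 in FFPE liver, a liver minus brain difference of -4.16 ± 0.13 in FF and -3.34 ± 0.13 in FFPE. Sult2b1, which sulfates cholesterol and other 3-beta-hydroxysteroids, was lower in liver in FF (-1.22 ± 0.13). It reached the array median only in the 3 FF brain arrays (5.21, 5.51 and 5.55) and read 4.22, 4.12 and 4.27 in FF liver. Since it was tested only through the group where it is high, this difference lends no support of its own. In FFPE the difference was 0.00 ± 0.13 (adjusted p = 0.984), with all 6 FFPE values between 3.78 and 4.06. Sult1e1, an oestrogen sulfotransferase, and Sult1c1, Sult2a2, Sult3a1, Ugt2a1 and Ugt2b37 stayed too low to be tested. The highest of their values was 5.38, that of Ugt2b37 in FF liver at 3 h.

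In liver the conjugation genes that passed against 0 h all read lower, and they were mostly Gst genes, mostly at 18 h. Time and storage temperature cannot be told apart here. At 18 h 12 of 33 tested members fell against 0 h and 0 rose (limma, adjusted p under 0.05, change shared by FF and FFPE, 2 arrays at each time), where 14.5% of all genes changed and 10.9% fell. The fallers were 10 of 16 Gst genes (Gsta4, Gstk1, Gstm2, Gstm3, Gstm5, Gstm6, Gstm7, Gsto1, Gstp3 and Gstt3), 1 of 9 Ugt genes (Ugt3a2) and 1 of 8 Sult genes (Sult1b1). The median change was -0.66 over the Gst genes, -0.29 over the Ugt genes, -0.18 over the Sult genes and -0.02 over all genes tested. Signal level differed too: mean FF liver levels of the fallers ran from 6.74 (Sult1b1) to 10.35 (Ugt3a2). Several members that did not pass were brighter, such as Gstp1 (12.54), Ugt2b5 (11.58) and Sult2a8 (11.34). Others, such as Gstm4 (7.52) and Ugt3a1 (8.80), were not. Differences can be compressed toward the top of the scale, and the part of signal level was not tested.

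Without the FFPE liver array at 0 h, 7 members fell (Gstk1, Gstm5, Gstm6, Gstm7, Gstt3, Sult1b1 and Ugt3a2), and 9 fell after quantile normalization of the arrays. Gstk1, Gstm5, Gstm6, Gstm7, Gstt3 and Sult1b1 passed under all 17 alternative settings tried. The share of all genes called under these settings is not given here, so a loss of calls particular to the members is not shown. In liver, as in any bulk tissue, fewer cells of a type and less RNA per cell cannot be told apart.

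**Figure D2:**
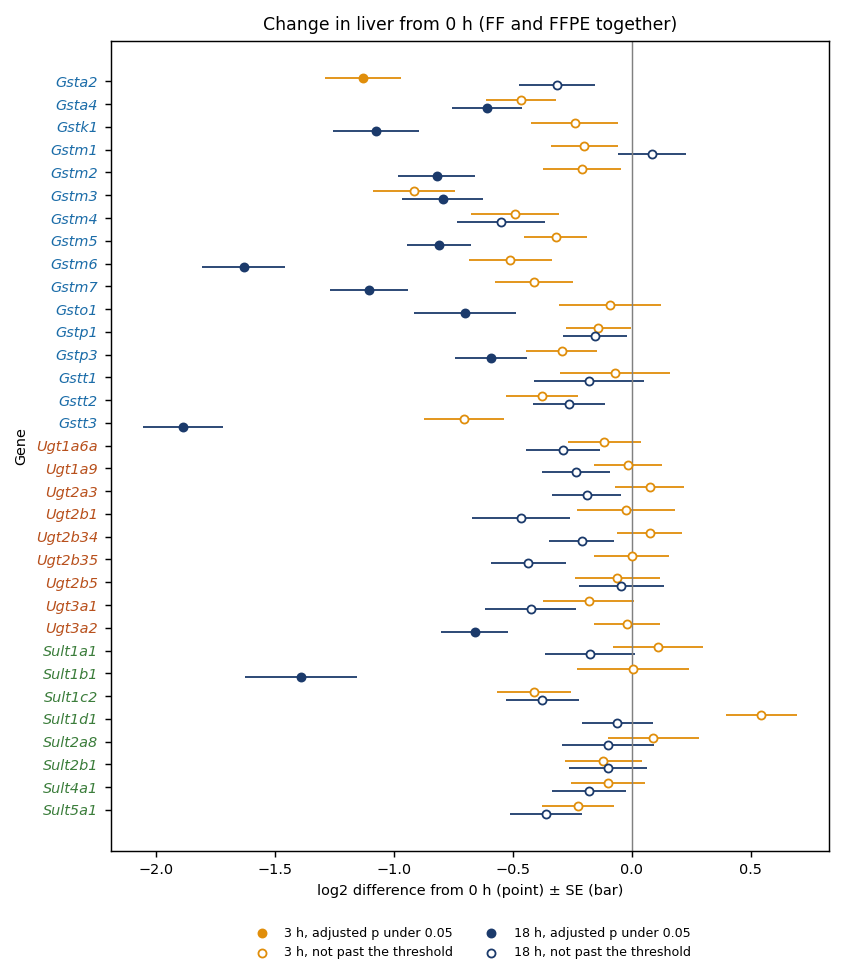
Change in liver against 0 h for the 33 tested genes, at 3 h (orange) and 18 h (dark blue). Points are fitted log2 differences shared by FF and FFPE, bars are SE, and filled points passed the adjusted p threshold of 0.05; at 3 h Gsta2 is the 1 filled point, and at 18 h all 12 filled points lie to the left of 0.

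The largest fall was that of Gstt3, a theta-class gene. Its level went from 7.66 at 0 h to 6.81 at 3 h and 5.93 at 18 h in FF liver, and from 6.85 to 6.29 and 4.81 in FFPE liver. The change at 18 h was -1.89 ± 0.17 (adjusted p = 7.8e-05), a 3.69-fold fall. Both preservations stepped down at each time. Gstt1, its direct neighbour on chromosome 10, differed by -0.18 ± 0.23 (adjusted p = 0.687), 0.17 higher in FF and 0.53 lower in FFPE, given as -0.53. Gstt2 lies close by and differed by -0.27 ± 0.15 (adjusted p = 0.295).

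The mu-class genes form a row of 7 consecutive protein-coding genes on chromosome 3, in the order Gstm5, Gstm7, Gstm6, Gstm3, Gstm2, Gstm1 and Gstm4. The first 5 of this row fell at 18 h, and the last 2 did not pass. Gstm6 went from 8.81 to 8.36 and 7.54 in FF liver and from 9.11 to 8.54 and 7.12 in FFPE liver, a change of -1.63 ± 0.17 (adjusted p = 0.00018). Gstm7 went from 8.56 to 8.15 and 7.69 in FF and from 8.63 to 8.22 and 7.29 in FFPE, a change of -1.11 ± 0.16 (adjusted p = 0.0011). In both genes each array was lower than the one before it. The other Gstm7 probe set, which was far dimmer (4.36 to 4.96 in liver), showed no such fall: its 18 h minus 0 h difference was -0.23 in FF and 0.23 in FFPE. In the mean of both probe sets Gstm7 fell by less (-0.55 ± 0.11, adjusted p = 0.011).

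Gstm5, the brain-enriched member, fell in liver by 0.84 in FF and 0.78 in FFPE, which are -0.84 and -0.78 as differences, with a fitted change of -0.81 ± 0.13 (adjusted p = 0.0019). Gstm2 went from 8.28 to 8.21 and 7.58 in FF and from 8.32 to 7.97 and 7.38 in FFPE (-0.82 ± 0.16, adjusted p = 0.0055). Gstm3 went from 7.97 to 7.25 and 7.40 in FF and from 7.88 to 6.77 and 6.86 in FFPE (-0.80 ± 0.17, adjusted p = 0.0086). For Gstm3 the lower level was already present at 3 h in both preservations. Gstm1 differed by 0.09 ± 0.14 (adjusted p = 0.768) and Gstm4 by -0.55 ± 0.18 (adjusted p = 0.067).

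The RefSeq promoter table (build GRCm38.p6), which gives 250 bases before and 50 after each start site, held windows for 34 of the 39 members. They were searched on both strands for TGACNNNGC, the core of the antioxidant response element bound by the Nrf2 protein, for GTTAAT, a half-site of the liver factor HNF1, and for GCGTG, the core bound by the Ah receptor. TGACNNNGC occurred in 2 of the 34 genes, Gstm5 and Gstm7, both of which fell at 18 h (14% of all 27025 genes in the table held it in a window). In Gstm5 it begins 42 bases before the start site and overlaps a GCGTG match on the other strand that begins 38 bases before. In Gstm7 the letters TGACAAAGC begin 129 bases before 1 listed start site and 74 bases after the other. GTTAAT occurred in 6 of the 34 genes, Sult1a1, Sult1d1, Ugt1a6a, Ugt1a9, Ugt2a3 and Ugt3a1 (8.24% of all genes). None of these passed the test at 18 h, and all are Ugt or Sult genes, of which few fell. GCGTG occurred in 8 of the 34 genes (35.2% of all genes), of which 3 fell at 18 h and 5 did not pass. Among tested members with a window, 10 fell at 18 h and 19 did not pass. A link between a match and a fall was not tested. The 250 bases before the start site are shown for Gstm5, which fell, and for Ugt1a9 and Ugt2a3, which did not pass, with all matches in capitals. A match describes letters only. The windows are chr3:107895604-107895853 on the + strand for Gstm5, chr1:88070529-88070778 on the + strand for Ugt1a9 and chr5:87337196-87337445 on the - strand for Ugt2a3.
Gstm5: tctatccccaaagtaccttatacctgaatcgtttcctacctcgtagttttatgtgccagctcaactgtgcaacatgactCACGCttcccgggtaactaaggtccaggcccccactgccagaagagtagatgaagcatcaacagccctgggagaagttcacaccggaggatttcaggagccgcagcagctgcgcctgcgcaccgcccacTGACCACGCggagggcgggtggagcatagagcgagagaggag
Ugt1a9: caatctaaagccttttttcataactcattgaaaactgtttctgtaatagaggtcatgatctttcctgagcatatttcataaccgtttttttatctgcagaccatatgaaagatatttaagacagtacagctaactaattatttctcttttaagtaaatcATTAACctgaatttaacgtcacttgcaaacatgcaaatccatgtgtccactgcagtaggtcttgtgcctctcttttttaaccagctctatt
Ugt2a3: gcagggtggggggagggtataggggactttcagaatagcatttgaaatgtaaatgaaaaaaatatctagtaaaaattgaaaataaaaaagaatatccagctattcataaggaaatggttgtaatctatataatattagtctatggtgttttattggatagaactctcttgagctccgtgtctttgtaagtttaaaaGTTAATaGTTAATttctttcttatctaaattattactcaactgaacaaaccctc

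The first capitals in Gstm5 are a GCGTG match read on the other strand, and the second run is the overlapping pair. Ugt2a3 holds GTTAAT at 2 places, 54 and 47 bases before its start. The Gstm windows were not copies of each other: the best ungapped alignment of any pair of Gstm genes reached 36.2% identity, and their longest shared run was 16 bases, between Gstm1 and Gstm3. Among Ugt2b genes, Ugt2b5 and Ugt2b37 shared a run of 72 bases.

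Outside the mu and theta classes, 4 more Gst genes fell at 18 h. Gstk1, the kappa-class enzyme of mitochondria and peroxisomes, went from 9.56 to 9.51 and 8.92 in FF liver and from 9.91 to 9.48 and 8.40 in FFPE liver (-1.08 ± 0.18, adjusted p = 0.0022). Gsta4, which conjugates the lipid peroxidation product 4-hydroxynonenal, went from 9.72 to 9.33 and 9.31 in FF and from 9.93 to 9.39 and 9.12 in FFPE (-0.61 ± 0.15, adjusted p = 0.015). Gstp3 went from 7.76 to 7.31 and 7.27 in FF and from 7.57 to 7.43 and 6.88 in FFPE (-0.59 ± 0.15, adjusted p = 0.020). Every 18 h value of these 3 genes lay below the 0 h value of its preservation.

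Gsto1, an omega-class enzyme with thioltransferase activity, depended on the FFPE array in its chosen probe set. It went from 9.97 to 9.75 and 9.71 in FF and from 8.59 to 8.63 and 7.45 in FFPE (-0.70 ± 0.21, adjusted p = 0.047). Without the FFPE liver array at 18 h the change was -0.20 (adjusted p = 0.498), and without the FF one it was -1.21. The other Gsto1 probe set differed at 18 h by -0.55 in FF and -0.91 in FFPE. After quantile normalization Gsto1, Gsta4 and Gstp3 were not called. Gstp1, the other pi-class gene, differed by -0.16 ± 0.14 (adjusted p = 0.523).

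Sult1b1, which sulfates thyroid hormones and phenols, was the 1 Sult gene to fall at 18 h. Its level was 7.51, 7.25 and 5.45 in FF liver and 7.24, 7.51 and 6.52 in FFPE liver, a change of -1.39 ± 0.23 (adjusted p = 0.0021). Both preservations were near their starting level at 3 h and lower at 18 h, by more in FF (-2.06) than in FFPE (-0.72), a gap that could not be tested with 1 array each. The change was -0.92 without the FF liver array at 0 h and -0.85 without that at 18 h, and passed in both. Sult2a8 and Sult1a1, the Sult genes with the highest readings in FF liver, differed by -0.10 ± 0.19 (adjusted p = 0.800) and -0.18 ± 0.19 (adjusted p = 0.625).

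Ugt3a2, whose enzyme uses UDP sugars other than UDP-glucuronic acid, was the 1 Ugt gene to fall. It gave 10.64, 10.60 and 9.82 in FF liver and 11.02, 11.02 and 10.52 in FFPE liver (-0.66 ± 0.14, adjusted p = 0.0077), with no step at 3 h in either. The other 8 Ugt genes all had a fitted difference below 0 at 18 h, as 53.6% of all genes tested did, between -0.05 for Ugt2b5 and -0.47 for Ugt2b1, and none passed. The nearest to the threshold was Ugt2b35 (-0.44 ± 0.16, adjusted p = 0.088).

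At 3 h Gsta2 alone fell among the 33 tested members, where 0.245% of all genes changed. Gsta2 is an alpha-class enzyme whose gene is a classic target of antioxidant response signalling. Its level at 0, 3 and 18 h was 10.14, 9.23 and 10.03 in FF liver, and 9.90, 8.55 and 9.38 in FFPE liver. The change at 3 h was -1.13 ± 0.16 (adjusted p = 0.014), a 2.19-fold fall. Both preservations dipped at 3 h, and at 18 h FF was near its 0 h value. From 3 h to 18 h Gsta2 rose by 0.82 ± 0.16 (adjusted p = 0.0084), and at 18 h it differed from 0 h by -0.32 ± 0.16 (adjusted p = 0.232). Its other probe set dipped too, by -1.53 in FF and -1.70 in FFPE. The call at 3 h was lost without the FF liver array at 3 h (adjusted p = 0.095), without the FFPE liver array at 0 h (0.134) or at 3 h (0.186), and with the liver arrays fitted alone (0.132).

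The other Gst genes leaned the same way at 3 h without passing. All 16 fitted differences lay below 0, as did 52.1% of those of all genes, with a median of -0.35 against -0.01 over all genes. In 14 of the 16 the 3 h array was lower in both preservations, against 28.8% of all genes; Gsto1 and Gstt1 were the exceptions. Gstm3 came nearest (-0.92 ± 0.17, adjusted p = 0.054), and Gstt3 was next (-0.71 ± 0.17, adjusted p = 0.147). Gstm3 passed when either 18 h liver array was left out, which made 2 members called. The Ugt genes had a median of -0.02 at 3 h, within -0.18 to 0.08. At an unadjusted p under 0.05 there were 11 members, 9 of them Gst genes and 2 Sult genes, and 9.23% of all genes.

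Sult1d1 took the opposite course to Gsta2. In FF liver it read 9.39, 9.85 and 9.41, and in FFPE liver 7.74, 8.37 and 7.60. Both preservations peaked at 3 h and were back at their start by 18 h. The difference at 3 h was 0.55 ± 0.15 (adjusted p = 0.203), which did not pass, whereas Sult1d1 fell from 3 h to 18 h by 0.61 ± 0.15, a difference of -0.61 (adjusted p = 0.023). A second Sult1d1 probe set differed at 3 h by 0.51 in FF and 0.98 in FFPE.

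**Figure D3:**
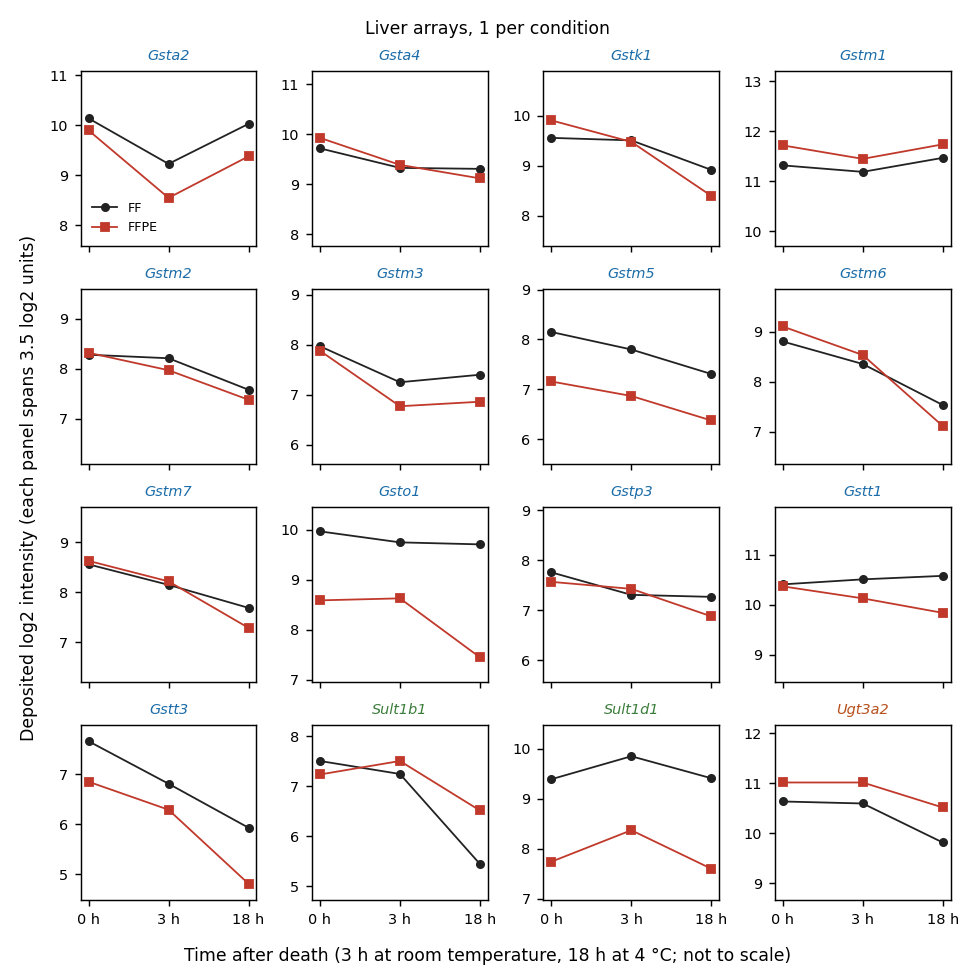
Deposited log2 intensity of 16 genes in the 6 liver arrays against time after death (0, 3 and 18 h, evenly spaced), FF as black circles and FFPE as red squares, 1 array per point and so no error bars. Each panel spans the same number of log2 units, so slopes can be compared: Gstt3, Gstm6 and Sult1b1 end far below their start, Gsta2 dips at 3 h, Sult1d1 peaks there, and Gstm1 stays near level.

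Between 3 h and 18 h in liver 10 members changed, where 10.3% of all genes did and 2.76% rose: Gsta2 rose, and Gstk1, Gstm2, Gstm5, Gstm6, Gstm7, Gstt3, Sult1b1, Sult1d1 and Ugt3a2 fell. Of these, Gstt3 (-1.18 ± 0.17, adjusted p = 0.0016) passed under all alternatives. Leaving out 1 liver array gave 2 calls (FFPE at 3 h), 3 calls (FF at 3 h) or 5 calls (FFPE at 18 h), and the count was 6 after quantile normalization and 4 in the liver arrays alone. These counts too are given without the share of all genes under the same setting. The 3 h and 18 h comparisons share the 0 h arrays, and the comparison of 18 h with 3 h shares arrays with both.

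Each preservation on its own gave part of this picture, with 1 array at each time and no test. At 18 h Gstm6, Gstt3 and Sult1b1 were at least 2-fold lower in FF liver (3.97% of all genes differed by 2-fold or more, and 2.75% were lower), and Gstk1, Gstm3, Gstm6, Gstm7, Gsto1 and Gstt3 were in FFPE liver (4.74%, with 4.44% lower and 0.306% higher). Gstm6 and Gstt3 were in both sets. At 3 h no tested member reached 2-fold in FF liver (0.474% of all genes), and Gsta2 and Gstm3 were 2-fold lower in FFPE liver (0.543%, with 0.291% lower). No tested member was 2-fold higher at either time in either preservation. Ugt2b37, which was too low to be tested, went from 4.36 to 5.38 in FF liver at 3 h and was at 3.99 at 18 h.

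Other liver transcripts and RNA quality moved over the same arrays. The 9 hepatocyte markers had a mean level of 12.73, 12.72 and 12.72 in FF liver and 12.56, 12.55 and 12.50 in FFPE liver, and 0 of 9 passed at 3 h or at 18 h. They lay near the top of the scale, where the highest gene of a liver array read 12.91 to 13.12 and differences can be compressed, so their level does not show that hepatocyte RNA was stable. At 18 h 3 of 6 pericentral hepatocyte markers fell (Oat, Slc1a2 and Lect2), with a mean level over the list of 10.47, 10.32 and 9.83 in FF liver, and 10.38, 10.19 and 9.63 in FFPE liver. Of 4 periportal markers, 1 fell (Hsd17b13). At 3 h 7 of 8 Kupffer cell markers fell, with a mean of 7.69, 6.59 and 7.48 in FF and 6.94, 5.69 and 6.21 in FFPE. At 18 h 4 of 5 stellate cell markers and 2 of 5 sinusoidal endothelial markers rose. The part of these shifts, and of the wider Gapdh 3' to 5' gap given above, in the falls of Gst genes was not tested.

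The rest of the conjugation pathway was examined with 5 gene lists. None of the 11 genes tested for supply of cofactors and precursors changed at 18 h, with a median difference of -0.12. Gclc, which makes the glutathione precursor, differed by 0.05 ± 0.17, Ugdh, which makes UDP-glucuronic acid, by -0.26 ± 0.16, and Papss2, which makes PAPS, by -0.25 ± 0.14 (adjusted p = 0.906, 0.329 and 0.296). Of 12 other conjugation genes, 3 fell: the methyltransferase genes Hnmt (-1.34 ± 0.19, adjusted p = 0.00068) and Nnmt (-1.02 ± 0.18, adjusted p = 0.0024) and the N-acetyltransferase gene Nat2 (-0.78 ± 0.22, adjusted p = 0.032). Of 5 deconjugation genes, 2 fell, the beta-glucuronidase gene Gusb (-0.80 ± 0.17) and the carboxylesterase gene Ces1d (-0.70 ± 0.15). The efflux transporter gene Abcg2 fell (-0.69 ± 0.16, adjusted p = 0.013), as 1 of 7. Apart from these, no gene of the 4 lists passed at 18 h in liver.

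Among 10 regulators, 3 fell at 18 h and 1 rose. Nfe2l2, which encodes Nrf2, differed by -0.83 ± 0.16 (adjusted p = 0.0052), Ahr, the Ah receptor gene, by -0.55 ± 0.15 (adjusted p = 0.026), Rxra, a nuclear receptor partner, by -0.52 ± 0.15 (adjusted p = 0.039), and Hnf4a, a hepatocyte transcription factor, by 0.53 ± 0.16 (adjusted p = 0.039). The pregnane X receptor gene Nr1i2 and the constitutive androstane receptor gene Nr1i3 did not pass. At 3 h in liver, 0 genes of any of the 5 lists passed.

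In brain hardly any gene passed the test with time, and no tested member did. By limma 0 of 33 passed at 3 h (0.0765% of all genes did) and 0 at 18 h (0.0306%), so nothing particular to the members can be read from these counts. At an unadjusted p under 0.05 there were 8 members at 3 h (5.23% of all genes) and 6 at 18 h (3.78%). The median difference over the members was -0.01 at 3 h and -0.06 at 18 h. Gstm5 and Gstp1, whose brain values are given above, moved little beside their tissue and preservation differences. Sult4a1 moved little beside its tissue difference only. At 18 h it differed by 0.19 in FF brain and 0.46 in FFPE brain, and its FFPE minus FF difference in brain was -0.88. At 18 h Gstt3 differed by 0.18 ± 0.17 in brain, Gstm6 by 0.18 ± 0.17, Gstk1 by 0.11 ± 0.18, Gstm7 by 0.07 ± 0.16, Gstm5 by 0.04 ± 0.13 and Sult1b1 by -0.10 ± 0.23 (adjusted p = 0.995 for each).

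The difference between the tissues was then tested directly. At 18 h the liver change was lower than the brain change for 6 members (limma interaction contrast), where 4.48% of all genes differed, 3.96% lower and 0.52% higher in liver: Gstt3 (-2.07 ± 0.24, adjusted p = 0.0017), Gstm6 (-1.81 ± 0.25, adjusted p = 0.0032), Gstm7 (-1.17 ± 0.23, adjusted p = 0.016), Gstk1 (-1.19 ± 0.26, adjusted p = 0.024), Gstm5 (-0.85 ± 0.19, adjusted p = 0.025) and Sult1b1 (-1.29 ± 0.33, adjusted p = 0.046). Gstm6 and Gstt3 passed under every alternative. Of the 16 alternatives, Gstk1 passed under 11, Gstm7 under 10, Gstm5 under 9 and Sult1b1 under 3. The other 4 were lost when the FF or the FFPE brain array at 0 h or at 18 h was left out, which left 2 calls, and 3 calls remained without the FFPE liver array at 0 h. In the mean of its probe sets the Gstm7 difference was -0.55 (adjusted p = 0.088). At 3 h no member differed between the tissues, Gsta2 included (0.0153% of all genes did).

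In the FF brain array at 0 h, several Ugt genes were raised together with liver transcripts. Of the 9 tested Ugt genes, 8 (all but Ugt3a2) read higher there than in both later FF brain arrays, where 30.8% of all genes did, as did 4 of 8 Sult genes and 4 of 16 Gst genes. The part of liver RNA in these readings was not tested. Ugt2b1 was 0.98 above the mean of the later arrays, Ugt2b5 0.91, Ugt1a6a 0.58 and Sult2a8 0.95. Other Ugt genes lay closer: Ugt2a3 was 0.22 above, Ugt2b35 0.125 and Ugt2b34 0.105. Alb was 2.92 and Cyp3a11 3.39 above in the same array. In FFPE brain the same count was 5 of 9 Ugt genes (29% of all genes), the gap of Ugt2b1 was 0.10 and that of Alb 0.53, and the mean of the 9 hepatocyte markers was 5.61, 4.60 and 4.56. With all arrays but that one, 0 members passed in brain at either time, as with it. Ugt2b1 was the 1 member that differed 2-fold between 2 brain arrays, in FF at 18 h against 0 h (0.382% of all genes did), and 0 did at 3 h in FF (0.566%) or in FFPE at 3 h (0.184%) or 18 h (0.138%).

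**Figure D4:**
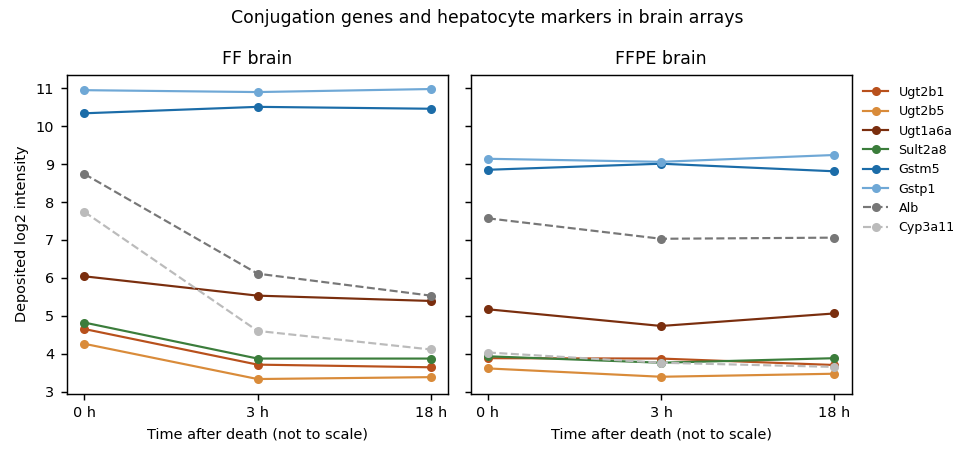
Deposited log2 intensity in FF (left) and FFPE (right) brain arrays against time after death (0, 3 and 18 h, evenly spaced), 1 array per point, for 6 conjugation genes (solid lines) and 2 hepatocyte markers, Alb and Cyp3a11 (dashed). In FF brain Ugt2b1, Ugt2b5, Ugt1a6a and Sult2a8 step down after 0 h with the markers, whereas Gstm5 and Gstp1 stay level. The panels share the y axis, and Gstm5 and Gstp1 sit lower in FFPE.

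Preservation moved many members, as it did most genes. In liver 3 members were higher in FFPE (Gstm1, Sult5a1 and Ugt3a2) and 13 were lower (limma, 3 arrays against 3 across the times), where 71.2% of all genes differed, 27.8% higher and 43.5% lower. In brain 7 were higher (Gsta2, Gstp3, Gstt1, Sult1b1, Sult1c2, Sult5a1 and Ugt3a1) and 14 lower, where 81.8% of all genes differed, 28.4% higher and 53.4% lower. FFPE minus FF had a median over the members of -0.21 in liver and -0.18 in brain, and over all genes of -0.17 and -0.42. After quantile normalization the medians over all genes were -0.09 and -0.11, and the liver split became 9 higher and 11 lower. Of the calls, 12 of 16 in liver and 13 of 21 in brain passed under all 17 alternatives. In liver Gstm1 was at -0.01 in the mean of its probe sets, and Gstm3, lower as deposited (-0.37), was at 0.08 after quantile normalization. In brain Gstm1, lower as deposited (-0.42), was at 0.27 after quantile normalization. Without the FF brain array at 0 h, 17 members passed in brain, 5 higher and 12 lower, and Gstm1, Gstt1, Sult1c2 and Ugt2a3 did not. Preservation and labelling kit cannot be told apart in any of these differences.

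Gsto1 had the largest gap of any member. Its brain level was 8.18, 8.23 and 8.05 in FF but 4.47, 4.63 and 4.44 in FFPE, a difference of -3.64 ± 0.18 (adjusted p = 1.2e-09), and in liver the difference was -1.59 ± 0.18. Its other probe set read 7.55 to 7.68 in FF brain and 4.75 to 5.16 in FFPE brain. Gstp1 was lower in FFPE brain (-1.80 ± 0.11) but not past the threshold in liver (-0.21 ± 0.11, adjusted p = 0.105). Gstm5 was lower in both, by 1.55 in brain and 0.95 in liver, as differences of -1.55 ± 0.11 and -0.95 ± 0.11.

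Gsta2 had the largest upward difference in brain. It read 3.52, 3.26 and 3.29 in FF brain and 5.84, 5.38 and 5.17 in FFPE brain, a difference of 2.11 ± 0.13 (adjusted p = 9.8e-09). In liver FFPE was lower, at -0.52 ± 0.13 (adjusted p = 0.0031), and the call did not hold after quantile normalization (adjusted p = 0.080). Its other probe set stayed between 3.58 and 3.63 in FF brain and between 3.75 and 3.93 in FFPE brain, so the 2 probe sets disagreed. In the mean of all its probe sets the liver difference was 0.01. Ugt3a1 also depended on the probe set: FFPE minus FF in liver was 0.34 ± 0.16 for the chosen one and -0.83 in the mean of its probe sets.

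The conjugation genes most lowered in FFPE liver were Ugt2b35 (-1.80 ± 0.13), Sult1d1 (-1.65 ± 0.12), Gsto1, Gstt2 (-1.39 ± 0.12) and Gstm4 (-1.12 ± 0.15). Ugt2b35 read 11.17, 11.16 and 10.97 in FF liver and 9.52, 9.53 and 8.85 in FFPE liver, whereas Ugt2b34, a gene of the same row, read 10.80, 10.85 and 10.52 in FF and 10.73, 10.83 and 10.59 in FFPE. The other Ugt2b34 probe set was higher in FFPE liver (11.01, 10.96 and 10.86) than in FF liver (10.15, 10.12 and 9.75). The chosen probe sets of Ugt2b35 and Ugt2b34 thus differed in FFPE minus FF. The probe sets of Ugt2b34 differed from each other as well, so a difference between the genes is not shown. Sult5a1 was higher in FFPE in both tissues, by 0.68 ± 0.12 in liver and 0.85 ± 0.12 in brain.

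The effect of preservation differed between the tissues for 18 members, 12 of them Gst genes, where 54.9% of all genes did, 36.4% higher in liver and 18.5% lower. In 10 the FFPE minus FF difference was higher in liver than in brain, led by Gsto1 (2.05 ± 0.25), Gstp1 (1.59 ± 0.16), Gsta4 (1.24 ± 0.17) and Sult2b1 (1.22 ± 0.19). In 8 it was lower, led by Gsta2 (-2.63 ± 0.19), Ugt2b35 (-1.70 ± 0.18), Gstt2 (-1.56 ± 0.17) and Sult1d1 (-1.52 ± 0.17). Ugt2b35 and Sult1d1 read between 3.05 and 4.02 in every brain array, near the low end of the scale. Sult2b1 was tested only through the 3 FF brain arrays and lay below the array median in all others, so its difference restates that.

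**Figure D5:**
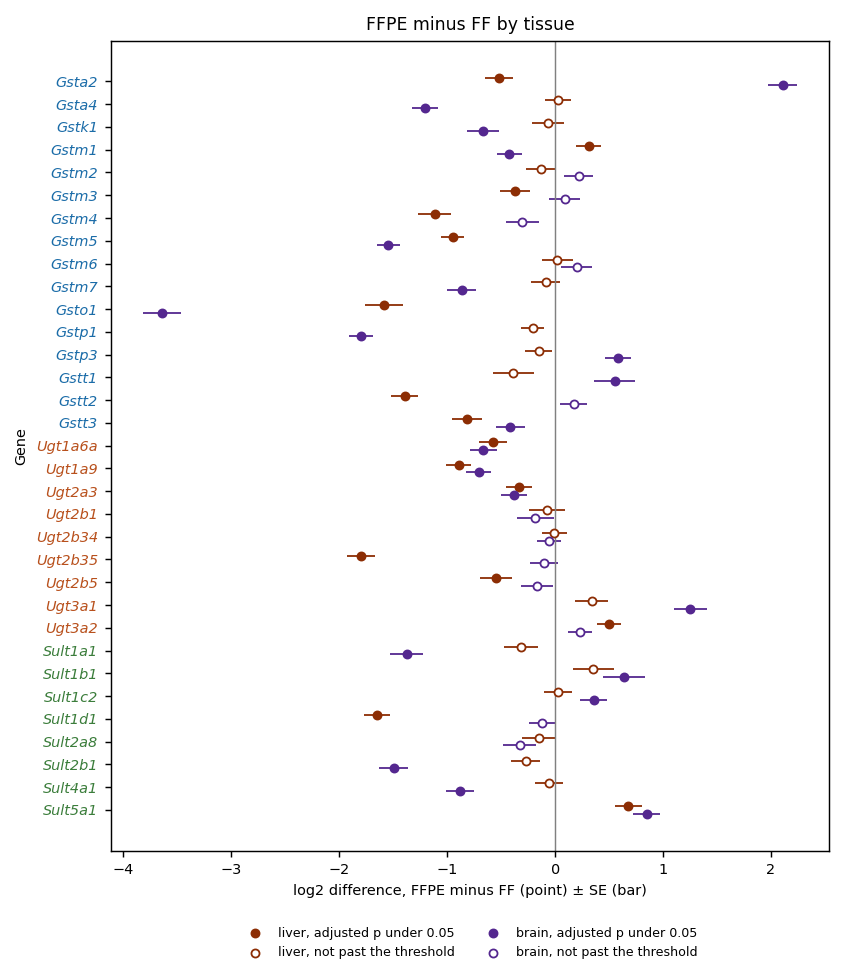
FFPE minus FF difference for the 33 tested genes in liver (brown) and brain (purple). Points are fitted log2 differences from 3 arrays against 3, bars are SE, and filled points passed the adjusted p threshold of 0.05; Gsto1 lies far to the left in both tissues, and Gsta2 lies right of 0 in brain and left of it in liver.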

How the data were processed

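RNA was hybridised to Affymetrix MG-430 PM arrays. The deposited values are log2 intensities which the authors computed by RMA (Affymetrix Expression Console, as the submitters' processing notes name them). Versions are not given in the sources used here, nor whether all arrays were normalized in 1 run. Arrays have no depth, and their number limits the precision.

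Of 45141 probe sets, 104 were controls, 28898 were listed with 1 gene and 551 with several, and the last were left out. Each gene was read from its probe set of highest mean. Tests covered the 13073 of 17097 genes that reached an array's median on 3 or more arrays. limma 3.58.1 in R 4.3.3 was fitted on all genes and all 12 arrays, with 4 tissue-by-preservation means and, per tissue, 1 change for 3 h and 1 for 18 h (8 coefficients, 4 residual degrees of freedom), two-sided, Benjamini-Hochberg over all genes tested, threshold 0.05. A gene's spread was estimated once over all arrays and came from the disagreement between FF and FFPE over time. Each of the 12 comparisons was a contrast of this model. The median SE of a time difference was 0.16. The scripts were tested on simulated data.

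The members and lists were chosen with earlier results of these data known. Any member could be named, and values in every array were given for members past the threshold in a time comparison, for the 3 of each family highest in FF liver and for those higher in brain. Of each list up to 6 genes were named. Alternatives were quantile normalization, no filter, the mean of all probe sets, robust eBayes, 1 tissue alone and leaving out each array.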

Additional observations from a re-analysis of the deposited data

Results flagged for a closer look

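For 6 of 33 tested members the change in liver at 18 h differed from that in brain by the interaction contrast (limma, adjusted p under 0.05), where 4.48% of all genes did. The liver minus brain difference in the change was -2.07 for Gstt3, -1.81 for Gstm6, -1.29 for Sult1b1, -1.19 for Gstk1, -1.17 for Gstm7 and -0.85 for Gstm5. In all 6 the liver fell, and no brain difference passed. Only Gstt3 and Gstm6 passed under every alternative, and Sult1b1 passed under 3 of 16.

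For 18 of 33 tested members the FFPE minus FF difference itself differed between liver and brain by the same kind of contrast, where 54.9% of all genes did. It was higher in liver by 2.05 for Gsto1, 1.59 for Gstp1, 1.24 for Gsta4, 1.22 for Sult2b1, 1.06 for Sult1a1, 0.82 for Sult4a1, 0.78 for Gstm7, 0.73 for Gstm1, 0.60 for Gstk1 and 0.60 for Gstm5. It was lower in liver for 8, at -2.63 for Gsta2, -1.70 for Ugt2b35, -1.56 for Gstt2, -1.52 for Sult1d1, -0.94 for Gstt1, -0.92 for Ugt3a1, -0.81 for Gstm4 and -0.73 for Gstp3. The count of 18 lies near the share of all genes, so nothing particular to the members can be read from it. Sult2b1 was tested only through its FF brain arrays. After quantile normalization 15 members passed, and Sult4a1 changed sign. The share of all genes under that setting is not given here.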

How the results depend on the processing

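No paired analysis was possible because each condition has 1 array, numbered 1, and no group shares 2 numbers. Counts of members called under an alternative are given without the share of all genes called there, so a change particular to the members is not shown. They kept within 1.5 times of the reported count except as follows. With the liver arrays alone 0 members passed in liver at 3 h and 4 between 3 h and 18 h, and quantile normalization gave 6 in the latter. Leaving out each array in turn gave 0 to 2 in liver at 3 h, 7 to 14 at 18 h, 2 to 10 between 3 h and 18 h, 2 to 7 for the tissue difference in the change at 18 h (0 to 0 at 3 h), 0 to 0 in brain at either time, 33 to 33 and 32 to 32 for tissue in FF and FFPE, 13 to 17 and 17 to 23 for FFPE against FF in liver and brain, and 17 to 19 for the difference of these.

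In single pairs of arrays a 1.5-fold limit gave 3 and 9 tested members in FF liver at 3 h and 18 h (3.89% and 16.6% of all genes), 15 in FFPE liver at 18 h (16.1%), 4 and 4 in FF brain (2.55% and 1.74%) and 1 and 2 in FFPE brain (2.29% and 2.09%). At 2-fold, quantile normalization gave 1 and 3 in FFPE liver (0.688% and 4.08%), 0 in FF brain at 18 h (0.283%) and 1 in FFPE brain at 3 h (Gstt1, 0.49%).

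Among members that passed in a comparison under any setting, 37 values under an alternative had the opposite sign to the reported one, all for preservation, and 25 of these were called neither as reported nor in the alternative. The other 12 follow. In the mean of all probe sets FFPE minus FF in liver became 0.013 for Gsta2, -0.01 for Gstm1, 0.36 for Sult4a1, 0.47 for Ugt2b34 and -0.83 for Ugt3a1, and in brain 0.54 for Ugt2b34. After quantile normalization it became 0.08 for Gstm3, 0.33 for Gstm7 and 0.28 for Gstp3 in liver and 0.27 for Gstm1 in brain, and its tissue difference became 0.44 for Gstm6 and -0.18 for Sult4a1. The cause was not tested. No time difference of a member called in liver changed sign under any alternative. Low signal limits the 6 untested members, and the median SE of 0.16 limits what 2 arrays per time can show.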
